A study of Homo sapiens with 9 samples.

Results

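Long noncoding RNA (lncRNA) starts bound by RNA polymerase II away from the coding starts of the GENCODE annotation were described in HEK293T cells. The enzyme's catalytic subunit, POLR2A, had been mapped by ChIP-seq, which sequences the DNA that an antibody pulls down with a protein, under 3 conditions, and the authors deposited 1 list of peaks for each. A peak belonged to the set when its summit, the position of highest signal, lay within 1000 bp of a transcript start of a GENCODE version 44 lncRNA gene and over 1000 bp from every start of a protein-coding, snRNA or snoRNA gene. Genes named SNHG were left out. The rule used positions only and kept 278 of the 8602 peaks on chromosomes 1 to 22 and X.

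HEK293T is a human embryonic kidney line that carries the SV40 large T antigen. The control group carried the control shRNA (shCtrl) and is labelled wildtype. The other groups are labelled U2AF1 knockdown and DHX9 knockdown, with no hairpin or depletion level given in the labels. Each condition had 2 ChIP replicates and 1 input, from cells grown in DMEM with serum. Peaks of the control list are named with a 1 that may stand for replicate 1, unlike those of either knockdown, and whether a list rests on 1 library or on both is not given in the sources used here. No comparison between conditions could therefore be set against the spread between replicates, and all that follows is a description of 3 lists.

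Most lncRNAs are made by RNA polymerase II, like messenger RNAs, and are capped and often spliced. Many arise beside a coding promoter, which makes their own polymerase signal hard to see, so starts that stand alone show it without that neighbour. U2AF1 is the small subunit of the factor that recognises the end of introns, and DHX9 is a helicase that unwinds double-stranded RNA and RNA:DNA hybrids.

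Of the 4 loci that stood nearest the top of the lists by fold enrichment, 3 held sequence like that of U1 within a peak. U1 is the small nuclear RNA that recognises the start of introns and is itself made by RNA polymerase II. Whether the lncRNA transcripts include the U1-like sequence was not examined. Among 24 functional small RNAs compared with every member by BLAST (a list chosen after the strongest members were seen), U1 matched 7 member peaks at 3 genes, all of them on the strand of the lncRNA. The segments are shown because they belong to those 3 loci. The RNU1-1 letters are the GENCODE transcript, with positions counted from 1 at its 5′ end, and the others are GRCh38 on the strand of U1. Capitals mark bases that differ from U1.

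RNU1-1, positions 77 to 158: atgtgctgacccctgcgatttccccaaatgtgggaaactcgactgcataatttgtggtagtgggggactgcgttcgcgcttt
ENSG00000290039, chr17:58659155-58659235: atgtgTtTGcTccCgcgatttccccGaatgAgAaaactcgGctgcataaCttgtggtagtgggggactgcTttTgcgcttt
RNU1-1, positions 133 to 164: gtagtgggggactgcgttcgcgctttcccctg
ENSG00000290121, chr1:144545827-144545858: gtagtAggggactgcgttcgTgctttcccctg
ENSG00000287978, chr1:146388126-146388157: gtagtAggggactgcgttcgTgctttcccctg

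The chromosome 17 segment was identical to U1 at 69 of 82 aligned positions (84.1%), and RefSeq places an snRNA gene, LOC124904122, over the peak. GENCODE version 44 has no snRNA start there, so the rule kept it. The DHX9 knockdown peak at this locus also matched the snoRNA SNORD3A, at 75% over 144 aligned positions on the other strand. SNORD3A also matched the DHX9 knockdown member at MRPS31P5, at 75.8% over 182 positions. Both chromosome 1 segments were the same 32 letters and matched the end of U1 at 30 positions (93.8%), and the 300 bp windows around the summits of these 2 loci were 99.6% identical. The other of the 4 loci, ENSG00000290122 in chr1:16905010-16906170, holds the highest fold of any member, 35.4 in the DHX9 knockdown list, and had no U1 match at the same threshold.

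Start regions of 5 lncRNAs with a peak are shown as examples, on the strand of the lncRNA. They run from 120 bases before to 80 from the start on. Other known members, such as NORAD and KCNQ1OT1, are not shown. Capitals mark exact matches, on either strand, to 6 promoter words: the TATA word TATAAA, the GC box word GGGCGG, the CCAAT box, the ETS word CCGGAAG, the palindrome bound by NRF1 and the cyclic AMP response word TGACGTCA. A match is a match of letters and not a measured site.

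MALAT1, chr11:65498964-65499163, plus strand: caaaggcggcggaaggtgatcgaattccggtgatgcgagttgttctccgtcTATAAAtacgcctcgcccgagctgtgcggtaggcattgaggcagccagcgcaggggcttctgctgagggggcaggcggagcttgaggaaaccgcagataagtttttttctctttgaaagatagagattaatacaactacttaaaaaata
LINC00511, chr17:72592712-72592911, minus strand: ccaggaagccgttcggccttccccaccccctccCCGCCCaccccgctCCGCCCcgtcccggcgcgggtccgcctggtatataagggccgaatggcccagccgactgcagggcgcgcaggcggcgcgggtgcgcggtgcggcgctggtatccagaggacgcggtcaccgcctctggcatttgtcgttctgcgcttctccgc
CHASERR, chr15:92882754-92882953, plus strand: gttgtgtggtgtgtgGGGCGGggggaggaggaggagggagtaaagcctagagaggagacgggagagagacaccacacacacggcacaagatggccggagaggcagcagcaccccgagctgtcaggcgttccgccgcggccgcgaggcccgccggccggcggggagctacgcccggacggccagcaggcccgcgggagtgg
MIR17HG, chr13:91347700-91347899, plus strand: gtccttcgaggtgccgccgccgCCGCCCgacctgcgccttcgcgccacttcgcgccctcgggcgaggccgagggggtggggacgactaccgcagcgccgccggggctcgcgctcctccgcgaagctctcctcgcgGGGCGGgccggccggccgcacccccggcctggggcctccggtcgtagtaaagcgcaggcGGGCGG
TERC, chr3:169764981-169765180, minus strand: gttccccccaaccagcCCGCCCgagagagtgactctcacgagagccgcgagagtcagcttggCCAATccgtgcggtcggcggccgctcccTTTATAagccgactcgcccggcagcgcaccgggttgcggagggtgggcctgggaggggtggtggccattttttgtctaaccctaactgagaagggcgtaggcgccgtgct

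The MALAT1 stretch was 50% G and C, against 66% at TERC, 72% at CHASERR, 73.5% at LINC00511 and 80% at MIR17HG. TERC held 3 of the words. MALAT1 held TATAAA and none of the GC-rich words.

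The set made up a similar share of each list. The control list had 82 such peaks among 2668 (3.07%, 95% Wilson interval 2.48 to 3.80), the U2AF1 knockdown list 48 among 1623 (2.96%, 2.24 to 3.90) and the DHX9 knockdown list 148 among 4311 (3.43%, 2.93 to 4.02). These intervals overlap and cover counting error only. The number of members followed the length of the lists, and the depth of the libraries behind the lists is unknown. A peak within 1000 bp of a lncRNA start was far more common, at 689, 367 and 1120 peaks, of which 607, 319 and 972 also lay that close to a coding, snRNA or snoRNA start and were left out.

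The members fell on 188 loci, a locus being peaks of the 3 lists that overlap, at 182 different lncRNA genes. Of 15363 lncRNA genes with a start away from the excluded classes, 80 had a control member (0.521%), 42 a U2AF1 knockdown member (0.273%) and 138 a DHX9 knockdown member (0.898%). Of 19970 protein-coding genes, 2526 had a start peak in control cells (12.6%), 1332 after U2AF1 knockdown (6.67%) and 4201 after DHX9 knockdown (21%). Peaks were thus listed at coding genes at a higher rate than at these lncRNA genes in all 3 lists.

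At the 1000 bp limit the last members inside were ENSG00000290366 at 980 bp and ENSG00000289044 at 972 bp from a lncRNA start, both in the DHX9 knockdown list. The nearest peaks outside were at LINC00461 (1046 bp, control list) and ENSG00000288913 (1116 bp, DHX9 knockdown list). On the coding side, the peak of ENSG00000288942 was kept at 1006 bp from USF2, and that of CTC-338M12.4 was left out at 994 bp from RACK1. A RefSeq coding start, which the rule did not use, lay within 1000 bp of 2 control members, 1 U2AF1 knockdown member and 5 DHX9 knockdown members. One such gene was RABGEF1, whose RefSeq start was 11 bp from the control summit at ENSG00000226824 and 22 bp from the DHX9 knockdown summit.

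By gene class, 101 of the 188 loci were at genes with an identifier and no symbol, 42 at genes with another symbol, 26 at LINC genes, 12 at antisense genes, 6 at microRNA host genes and 1 at a divergent transcript, DOCK9-DT. Relative to the genes of each class with a start away from the excluded ones, microRNA hosts had a member most often, 5 of 76 genes (6.58%). The shares were 4.89% for other symbols, 1.13% for LINC genes, 1.08% for antisense genes and 0.871% for genes without a symbol. Names ending in P, given to many transcribed pseudogenes, were among the other symbols. A pseudogene start lay within 1000 bp of 16 control members (19.5%), 7 U2AF1 knockdown members (14.6%) and 36 DHX9 knockdown members (24.3%).

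A list of 48 known noncoding genes, taken up with earlier results of these data known, was looked up in full. Members stood at 7 of them: MALAT1, NORAD, KCNQ1OT1, MIR17HG, CHASERR, TERC and, through the lncRNA model ENSG00000270066 that starts on it, SCARNA2. Another 9 had a peak outside the rule, among them GAS5 and ZFAS1, whose peaks lie beside coding or snoRNA starts. No peak was listed at the starts of 31, among them NEAT1, XIST, H19, MEG3 and HOTAIR, and LINC01578 was not in the annotation. A missing peak says only that none passed the authors' threshold.

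The 4 strongest loci by mean place in the lists were in all 3 and near the top of each. Fold enrichment is the authors' ratio and depends on the background of its own library, so the rank within the list is given beside it. Ranks are out of 2668 control, 1623 U2AF1 knockdown and 4311 DHX9 knockdown peaks, so equal ranks in different lists are not equal places. At ENSG00000290039 (chr17:58658362-58659463) the fold was 21.2 in control cells (rank 21), 12.7 after U2AF1 knockdown (rank 41) and 32.6 after DHX9 knockdown (rank 21). At ENSG00000287978 (chr1:146387281-146388374) it was 17.4 (rank 40), 13.4 (rank 35) and 18.5 (rank 59) in the same order. At ENSG00000290122 it was 12.6 (rank 68), 11.5 (rank 50) and 35.4 (rank 17). At ENSG00000290121 (chr1:144545646-144546650) it was 9.72 (rank 102), 13.4 (rank 33) and 14.9 (rank 79). All 4 stayed within the top 4% of every list. Next by mean place was ENSG00000288632 (chr16:29613447-29613895), with fold 12.6 (rank 66), 10.3 (rank 68) and 9.30 (rank 251). In the control list it ranked above ENSG00000290122 and ENSG00000290121. Its window was 95.6% unique, and it had no U1 match at the threshold used. The 300 bp windows at ENSG00000287978 and ENSG00000290121 were mostly repeated sequence, with 23.9% and 19.9% of their 50-base words found once in GRCh38, whereas those at ENSG00000290039 and ENSG00000290122 were 100% and 95.6% unique. How the authors placed reads that fit several sites is not given in the sources used here, and its part in these 2 peaks was not tested.

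MALAT1, an abundant RNA of nuclear speckles, had a peak in chr11:65498896-65499264 in all 3 lists. The summit was 4 bp downstream of a MALAT1 start in control cells, 5 bp upstream after U2AF1 knockdown and 1 bp upstream after DHX9 knockdown. Its fold was 5.80 (rank 412), 8.70 (rank 107) and 13.9 (rank 87), which put it 15.4% of the way down the control list, 6.59% down that of U2AF1 knockdown and 2.02% down that of DHX9 knockdown. MALAT1 thus stood nearer the top in both knockdown lists than in the control list.

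LINC00511 had the same order, with fold 5.79 (rank 418) in control cells, 7.98 (rank 140) after U2AF1 knockdown and 9.73 (rank 213) after DHX9 knockdown. CHASERR, an RNA that lies next to CHD2 and lowers its expression, had fold 5.93 (rank 374), 6.56 (rank 257) and 9.57 (rank 224). The host of a microRNA cluster, MIR17HG, had fold 6.04 (rank 341), 5.75 (rank 445) and 7.07 (rank 778). MIRLET7A1HG, which hosts let-7 microRNAs, had fold 5.34 (rank 571), 5.00 (rank 718) and 6.26 (rank 1265). Both microRNA hosts stood nearer the top in the control list than in either knockdown list.

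ENSG00000270066, at the start of SCARNA2, an RNA that guides modification of spliceosomal RNAs, had fold 6.26 (rank 301), 5.72 (rank 453) and 9.93 (rank 203). Some loci that were low in the control list stood much higher after a knockdown. ENSG00000260369 was 85.4% down the control list (rank 2279), 36.4% down that of U2AF1 knockdown (rank 591) and 16.0% down that of DHX9 knockdown (rank 689). Its fold was 3.02, 5.30 and 7.21. LINC01970 had rank 2402, 482 and 2490, with fold 2.76, 5.60 and 5.06.

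Of the 24 loci with a peak in all 3 lists, 13 stood nearer the top in the U2AF1 knockdown list than in the control list, where 43.9% of all 800 such loci of the series did. In the DHX9 knockdown list 17 of the 24 stood nearer the top than in the control list, against 61.9% of the 800. The median shift from the control list was 0.573 percentage points towards the top in the U2AF1 knockdown list, where that of all 800 loci was -1.26, away from the top. In the DHX9 knockdown list it was 5.44 points towards the top, and 2.63 over all 800 loci. With 24 loci and a single list per condition these counts were not tested.

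**Figure D1:**
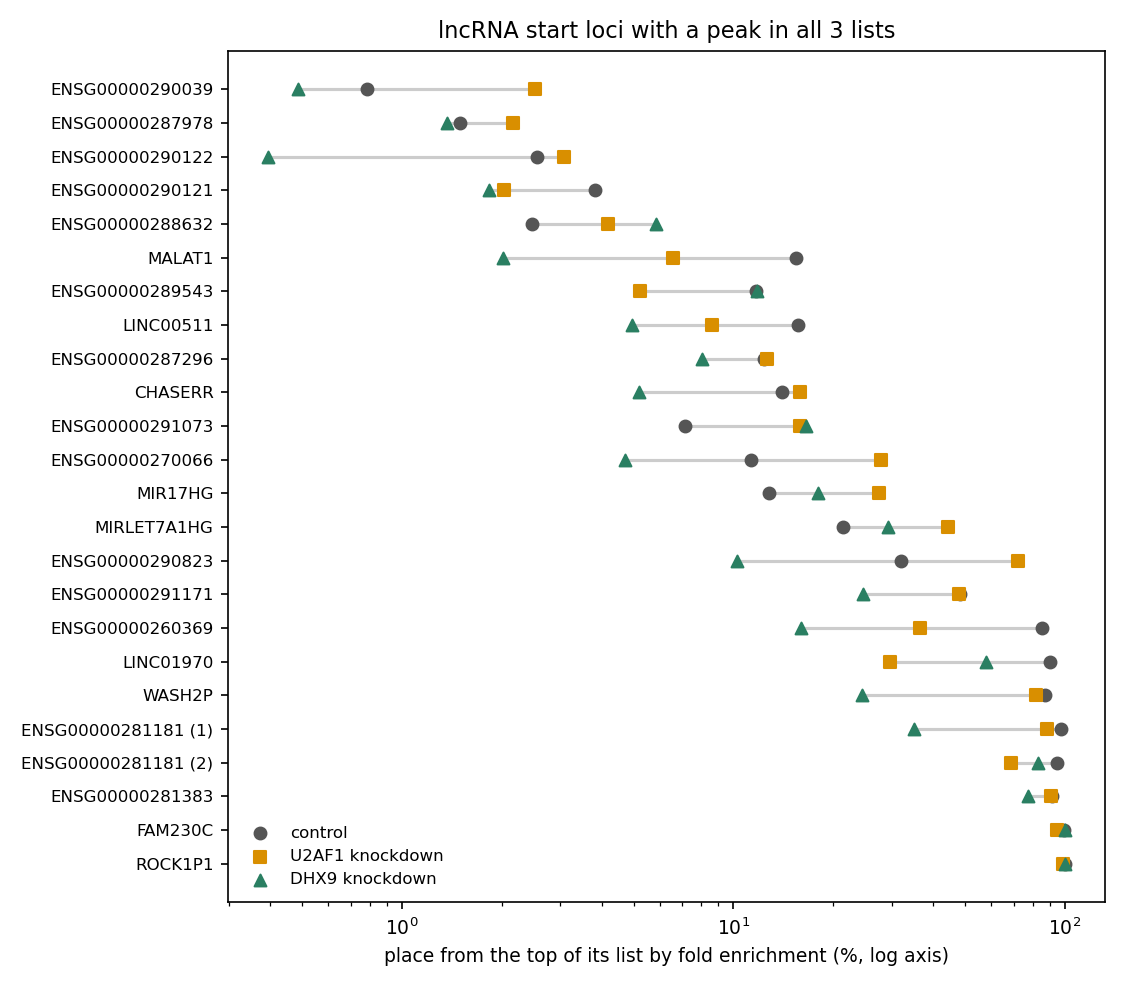
Place of each of the 24 loci with a peak in all 3 lists, from the top of its list by fold enrichment (horizontal axis, percent, log scale); circles are the control list, squares the U2AF1 knockdown list and triangles the DHX9 knockdown list, and grey lines join the lists. The 4 strongest loci lie within the top 4% of every list, and MALAT1 moves from 15.4% in the control list to 2.02% in the DHX9 knockdown list.

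The other members were held by fewer lists. Of the 188 loci, 24 (12.8%, 8.73 to 18.3) were in all 3 lists, where 14.4% of all 5556 loci of the series were. The DHX9 knockdown list alone held 82 (43.6%, 36.7 to 50.8), against 39.6% of all loci. Control and DHX9 knockdown shared 32 (17%), U2AF1 and DHX9 knockdown 11 (5.85%), and control and U2AF1 knockdown 3 (1.60%). The control list alone held 24 (12.8%) and the U2AF1 knockdown list alone 12 (6.38%). The distribution was close to that of all loci, with the intervals around the members' shares covering the series' share in each pattern.

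KCNQ1OT1, the imprinted RNA made antisense to KCNQ1 from within that gene, had a peak in the control list (fold 4.09, rank 1383) and the DHX9 knockdown list (fold 7.51, rank 568), and none in the U2AF1 knockdown list. TERC, the RNA template of telomerase, had one in the control list (fold 4.09, rank 1383) and the U2AF1 knockdown list (fold 3.73, rank 1320), and none in the DHX9 knockdown list, which is the longest. The TERC peaks were 51.8% down the control list and 81.3% down that of U2AF1 knockdown. NORAD, an RNA that binds PUMILIO proteins, had a peak in the DHX9 knockdown list only (fold 5.58, rank 1892). All 3 lay in windows of 100% unique sequence.

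Among DHX9 knockdown members without a control peak the highest were ENSG00000290383 (fold 7.84), LINC01023 (fold 7.57), AMZ2P1 (fold 7.22), ENSG00000291055 (fold 7.06) and FAM86C2P (fold 6.93), at ranks 481 to 826. ENSG00000290383 had no unique 50-base word in its window. Among U2AF1 knockdown members without a control peak the highest were LINC02256 and CRNDE (each with fold 5.57 and rank 496), ENSG00000267053 (fold 5.55), IRAIN (fold 5.27) and ENSG00000290854 (fold 5.24). LINC02256 had 15.5% unique words in its window and ENSG00000290854 none. IRAIN lay 1024 bp from the nearest start of IGF1R, just past the limit of the rule.

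The control members without a U2AF1 knockdown peak were led by ENSG00000291228 (fold 6.15), ENSG00000290993 (fold 5.65), SDHAP1 (fold 5.58), LINC00888 (fold 5.51) and ENSG00000291079 (fold 5.37). Of these, SDHAP1 and ENSG00000291079 had a DHX9 knockdown peak. The control members without a DHX9 knockdown peak were led by ENSG00000291228, ENSG00000289222 (fold 5.74), ENSG00000290993, LINC00888 and ENSG00000291051 (fold 5.36). ENSG00000289222 had a U2AF1 knockdown peak.

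Members recurred between lists about as often as other peaks. A U2AF1 knockdown peak overlapped 27 of the 82 control members (32.9%, 23.7 to 43.7), where 34.3% of all control peaks were overlapped. A DHX9 knockdown peak overlapped 55 of them (67.1%, 56.3 to 76.3), against 67.1% of all. Of the 48 U2AF1 knockdown members, 26 had a control peak (54.2%, 40.3 to 67.4, against 56.5%) and 33 a DHX9 knockdown peak (68.8%, 54.7 to 80.1, against 69.1%). Of the 148 DHX9 knockdown members, 55 had a control peak (37.2%, 29.8 to 45.2, against 41.5%) and 34 a U2AF1 knockdown peak (23%, 16.9 to 30.4, against 25.9%). All 6 shares were near the background. Recurrence went with strength, as in all peaks: a control peak overlapped 40 of the 62 DHX9 knockdown members above the median fold of their list (64.5%, 52.1 to 75.3, against 57.2% of all such peaks) and 15 of the 86 below it (17.4%, 10.9 to 26.8, against 25.7%). The unequal directions go with the unequal lengths of the lists. Each list entered several of these comparisons, so they are not independent.

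**Figure D2:**
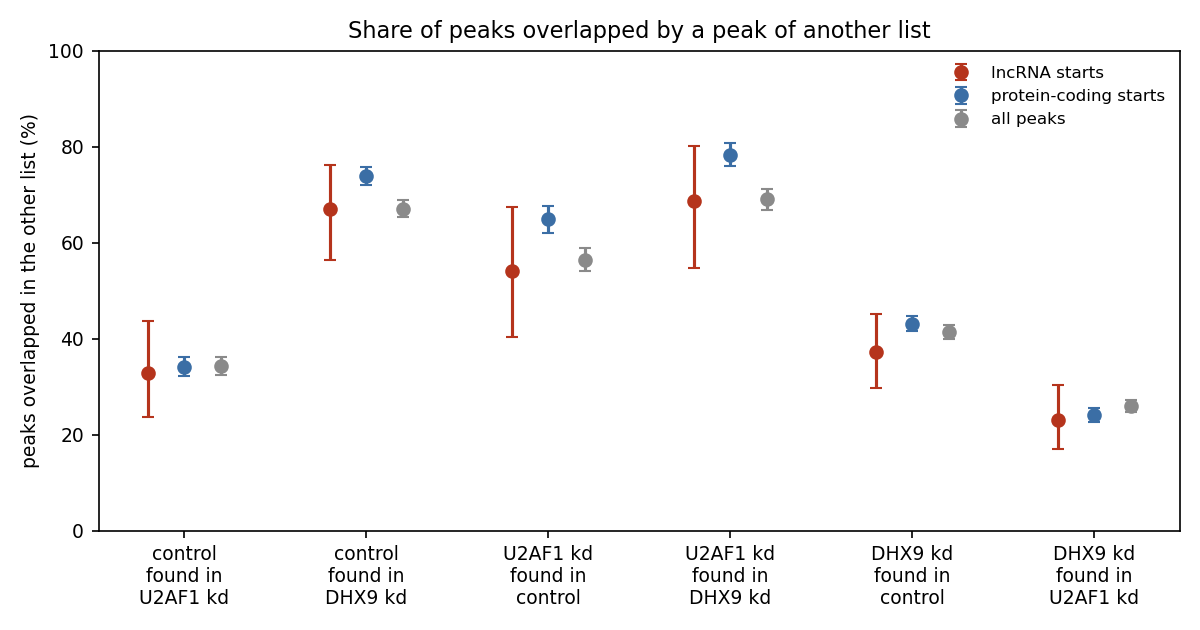
Share of peaks that share at least 1 bp with a peak of another list (vertical axis, percent), for members, peaks at protein-coding starts and all peaks, in the 6 directions; bars are 95% Wilson intervals. The members' intervals cover the share over all peaks in every direction, for example 67.1% against 67.1% from control to DHX9 knockdown.

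Recurrence was also counted by gene structure. A gene counted as spliced when any of its annotated transcripts was, so MALAT1, with up to 8 exons in a transcript, was among these. Of the 64 control members at genes with a spliced transcript, 15 had a U2AF1 knockdown peak (23.4%, 14.7 to 35.1), and of the 18 at single-exon genes 12 did (66.7%, 43.7 to 83.7). The median places of these groups were close, at 51.7% and 54.0% down the control list. In windows of mostly unique sequence the counts were 11 of 54 (20.4%, 11.8 to 32.9) and 8 of 13 (61.5%, 35.5 to 82.3). With the U1-like genes left out as well, the single-exon count was 7 of 12 (58.3%, 32 to 80.7), an interval that overlaps that of the spliced members. The split was chosen with the values known and was not tested.

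At coding starts the same order was seen, with 703 of 2095 control peaks at spliced genes (33.6%) and 30 of 50 at single-exon genes (60%) overlapped by a U2AF1 knockdown peak. There the single-exon peaks were also stronger, at a median place of 33.0% against 46.1%. A DHX9 knockdown peak overlapped 40 of the 64 spliced control members (62.5%, 50.3 to 73.3) and 15 of the 18 single-exon ones (83.3%, 60.8 to 94.2), so that these intervals overlap. Seen from the U2AF1 knockdown list, 15 of 33 spliced members (45.5%) and 11 of 15 single-exon members (73.3%) had a control peak, also with overlapping intervals.

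**Figure D3:**
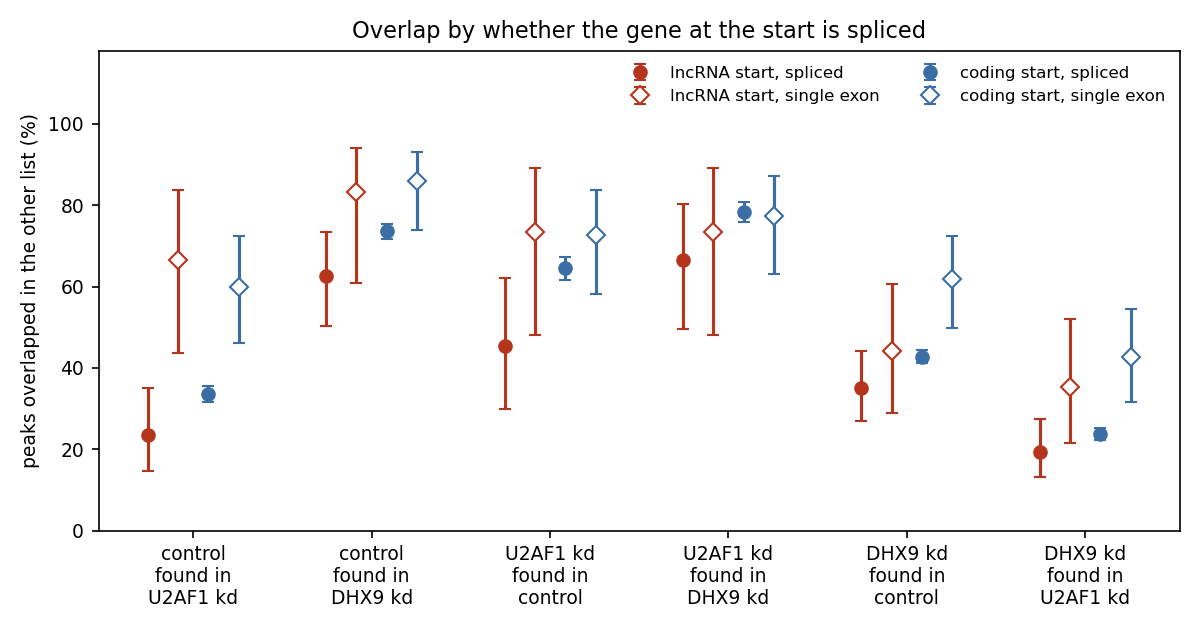
Share of peaks overlapped by a peak of another list (vertical axis, percent) for members at spliced genes (filled red circles) and single-exon genes (open red diamonds) and for coding starts (blue), with 95% Wilson intervals. The intervals of the red pair stand apart only from control to U2AF1 knockdown, at 23.4% and 66.7%.

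In strength the members were like the rest of their lists. The median fold was 4.09 in control cells (range 1.22 to 21.2), 4.93 after U2AF1 knockdown (1.57 to 13.4) and 5.09 after DHX9 knockdown (1.41 to 35.4), where all peaks had medians of 4.15, 4.81 and 5.30. The median −log10 q was 7.62, 6.62 and 6.16, against 7.58, 5.80 and 6.25 over all peaks. Members were 319, 284 and 321 bp wide at the median, against 319, 285 and 323 bp. In the DHX9 knockdown list their median place was 57.0% down the list (47.7 to 64.4), against 47.2% for peaks at coding starts (45.7 to 48.7), and these intervals overlap. The members' place there depended on the peaks taken: it was 49.1% among peaks with −log10 q of at least 5, 50.6% when ranked by p-value and 42.5% (29.6 to 65.4) among the 1623 most significant peaks.

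Summits clustered at the start, with more of them far from it than at coding genes. They lay downstream of it for 64.6% of control members (53.8 to 74.1), 52.1% of U2AF1 knockdown members (38.3 to 65.5) and 62.2% of DHX9 knockdown members (54.1 to 69.6), against 66.1%, 71.3% and 64.0% at coding starts. The U2AF1 knockdown share was 46.7% (32.9 to 60.9) with limits of 500 bp. Among the 29 U2AF1 knockdown members in windows of mostly unique sequence, a setting chosen after seeing the data, it was 62.1%. The interval of that share covers both the 52.1% of all members and the 71.3% at coding starts. The median summit was 35 bp downstream in control cells, 19.5 bp after U2AF1 knockdown and 24 bp after DHX9 knockdown, against 25, 35 and 20 bp at coding starts. Summits within 100 bp of the start made up 64.6% of the control members (53.8 to 74.1), 39.6% of the U2AF1 knockdown members (27 to 53.7) and 60.1% of the DHX9 knockdown members (52.1 to 67.7), against 72.4%, 70.3% and 70.3% at coding starts; the control interval covers the coding share. Summits over 500 bp away made up 13.4%, 18.8% and 10.8% of members, against 1.82%, 2.29% and 2.31% at coding starts. The U2AF1 knockdown members were the most spread. This list also had the lowest share of members in mostly unique sequence, 60.4%, and the part of repeats in the spread was not tested.

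**Figure D4:**
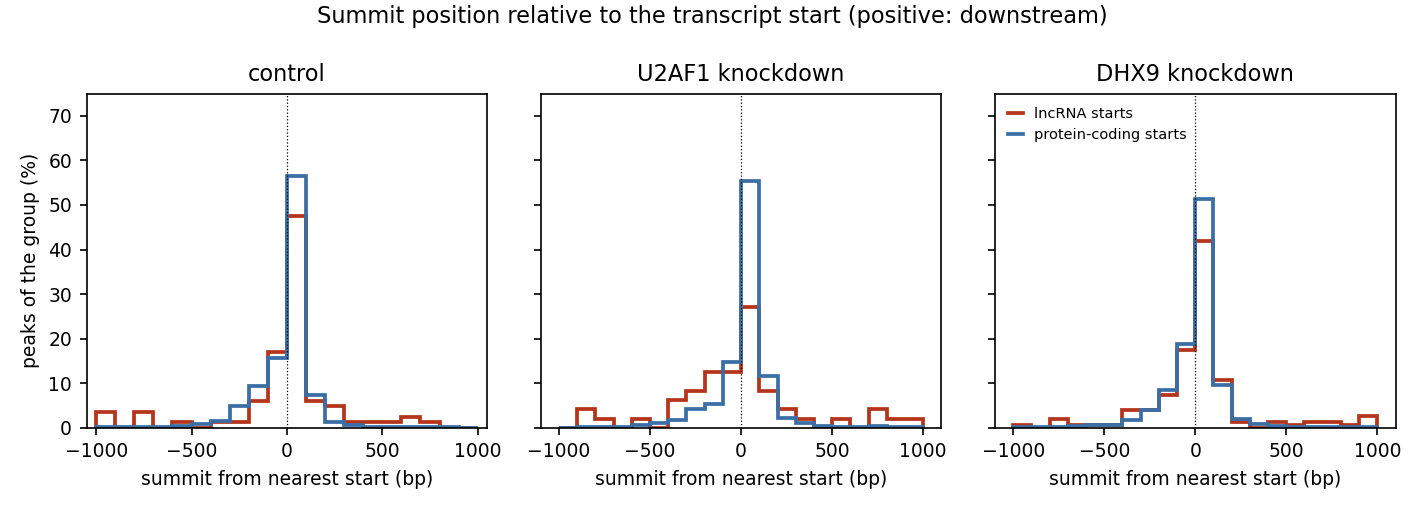
Distance from the nearest transcript start to the peak summit (horizontal axis, bp, positive downstream, bins of 100 bp) as a share of members (red) and of peaks at protein-coding starts (blue) in each list. The highest bin of each is the 100 bp downstream of the start, and 39.6% of the U2AF1 knockdown members lie within 100 bp of it against 70.3% at coding starts.

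Most members lay far from coding genes. The nearest coding start was over 10000 bp away for 65 control members (79.3%), 36 U2AF1 knockdown members (75%) and 121 DHX9 knockdown members (81.8%). Summits fell inside the body of a coding gene for 9, 5 and 15 members, and the lncRNA ran antisense to that gene in 6, 3 and 10 of them. MIR762HG, antisense within BCL7C, was one, with fold 4.28 (rank 1218) in the control list and 7.65 (rank 529) in the DHX9 knockdown list.

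The sequence around the summits was rich in G and C and in CpG, with a median GC content below that at coding starts in each list. The median GC content of the 300 bp window was 67.5% in control members (64.3 to 70.7), 70.2% after U2AF1 knockdown (64.7 to 73.3) and 69.7% after DHX9 knockdown (68.3 to 71.0), against 71.7%, 73.3% and 72.3% at coding starts. The median observed to expected CpG ratio was 0.891 (0.843 to 0.948), 0.954 (0.852 to 1.03) and 0.896 (0.863 to 0.927). At coding starts it was 0.927, 0.928 and 0.922, which these intervals cover. G outnumbered C in the 500 bp downstream of the start, on the strand of the RNA, at 54.9% (44.1 to 65.2), 52.1% (38.3 to 65.5) and 56.8% (48.7 to 64.5) of members, against 70.7%, 68.8% and 70.7% of coding starts. The excess of G over C was thus less common at the members in all 3 lists, with intervals below the coding share.

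Repeated sequence was common among the members. At least 50% of the 50-base words of the window were unique in GRCh38 for 81.7% of control members (72.0 to 88.6), 60.4% of U2AF1 knockdown members (46.3 to 73.0) and 77.0% of DHX9 knockdown members (69.6 to 83.1), against 98.9%, 97.4% and 98.7% at coding starts. The window had no unique word for 5, 11 and 13 members. Windows of 24 loci fell into 10 families of at least 90% identity over 150 bp, the largest of them the 4 loci LINC01409, ENSG00000290989, ENSG00000291203 and ENSG00000291207. On the short arm of chromosome 21 stood 3, 4 and 5 members at fold 1.8 to 5.96, and none of their windows had a unique word.

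The cyclic AMP response word TGACGTCA was found in 8 of 82 control members (9.76%, 5.03 to 18.1), against 2.66% of all control peaks and 2.89% of those at coding starts. It was in 1 of 48 U2AF1 knockdown members (2.08%, against 1.66% of all) and 6 of 148 DHX9 knockdown members (4.05%, against 2.46%). The 8 control matches are shown on the strand of the lncRNA with 12 bases on each side, the word in capitals, because they show which members are copies of each other.

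ENSG00000287296, chr19:13152996-13153027: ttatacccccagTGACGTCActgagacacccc
ENSG00000290832, chr7:73005949-73005980: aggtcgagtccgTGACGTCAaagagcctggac
STAG3L5P, chr7:100336032-100336063: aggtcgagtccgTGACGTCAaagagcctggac
GTF2IRD1P1, chr7:66844976-66845007: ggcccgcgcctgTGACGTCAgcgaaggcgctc
ENSG00000289280, chr10:124916738-124916769: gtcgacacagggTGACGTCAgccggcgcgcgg
ENSG00000291068, chr1:223992632-223992663: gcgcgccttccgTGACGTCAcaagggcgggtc
ENSG00000291207, chr7:45769044-45769075: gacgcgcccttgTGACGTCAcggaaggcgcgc
ENSG00000291176, chr2:96010532-96010563: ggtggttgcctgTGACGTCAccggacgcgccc

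ENSG00000290832 and STAG3L5P have the same 32 letters, and their windows were 95.8% identical, so they show 1 sequence at 2 places. ENSG00000291068 and the reverse complement of ENSG00000291207 differ in 1 of the 32 letters. The control peak at ENSG00000291068 overlaps the DHX9 knockdown peak named ENSG00000290989 above, at the same locus, which is in 1 sequence family with ENSG00000291207. The 8 matches thus hold at least 2 pairs of copies. GTF2IRD1P1 resembled the second pair, differing in 6 letters from the reverse complement of ENSG00000291068 and in 7 from ENSG00000291207. ENSG00000291176 differed from GTF2IRD1P1 in 9. ENSG00000287296, near IER2, was the only member with the word in all 3 lists, with fold 6.11 (rank 329), 7.03 (rank 205) and 8.43 (rank 346). CCAAT was in 35.4% of control members (25.9 to 46.2), 8.33% of U2AF1 knockdown members (3.29 to 19.6) and 18.9% of DHX9 knockdown members (13.4 to 26.0), against 23.4%, 18.0% and 20.9% of all peaks. GGGCGG was in 64.6%, 60.4% and 71.6% of members, against 69.6%, 66.2% and 75.4% of all peaks. TATAAA was in 9.76%, 12.5% and 5.41%, against 9.0%, 7.83% and 3.69%.

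A further 2 groups of members overlapped genes of other RNA classes. At ENSG00000283360 on chromosome 1, peaks of both knockdown lists covered RefSeq tRNA genes, among them TRG-TCC2-5 and TRL-CAG1-5, and the control list had no member there. These peaks were weak, at fold 1.96 to 3.55 and 92.5% to 97.8% of the way down their lists. At each of these loci the window of the higher-placed peak had no unique word. Over the series, 5.69% of all loci were held by both knockdown lists and not by control. tRNA genes are transcribed by RNA polymerase III. On the short arm of chromosome 21, 2 of 3 control members, 4 of 4 U2AF1 knockdown members and 3 of 5 DHX9 knockdown members overlapped ribosomal RNA genes such as RNA45SN1, which RNA polymerase I transcribes.

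The labelled cell line was checked against marker genes. Of 7 listed for HEK293T, 0 had a start peak in the control list and 1 in each knockdown list, so the lists do not show most markers of the line. Of 5 genes of other cells (ALB, PTPRC, CD3E, GFAP and MYOD1), none had a start peak in any list. A gene without a peak may still be transcribed.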

How the data were processed

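POLR2A ChIP-seq of HEK293T cells was read from 3 deposited peak lists, 1 per condition. The submitters' processing notes name Bowtie2 2.4.5, MACS2 2.2.7.1, deepTools 3.5.1 and hg38, without settings. The authors deposited for each peak a fold enrichment (a ratio), −log10 of its p-value and q-value, and a summit offset; the deposited score column was not used. Library depth is unknown, and the handling of input, duplicates and multiply placed reads is not given in the sources used here. The lowest deposited −log10 q was 1.31 (control), 1.30 (U2AF1 knockdown) and 1.31 (DHX9 knockdown). All peaks lay within GRCh38.

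Starts came from GENCODE version 44 and gene neighbours from RefSeq on GRCh38. Overlap needed 1 bp. Peaks were ranked by fold within a list. Intervals are 95% Wilson intervals for shares and order-statistic intervals for medians, and cover counting error only. Words of 50 bases were counted exactly over GRCh38 on both strands, after a check on simulated sequence. BLAST 2.17.0 was run with an e-value of 1e-05. Members, lists and splits were chosen with earlier results of these data known. Named genes were the 5 strongest members of each list and of each group without an overlapping peak, up to 15 loci in all 3 lists, and listed known genes; others were named after their values were seen.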

Additional observations from a re-analysis of the deposited data

How the results depend on the processing

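The number and share of members, their median place, GC content, share of summits downstream and the 6 overlap shares were each recomputed under those of 13 settings that bear on them, giving 198 values, of which 185 stayed within the interval or within 1.5 times the count. Peaks with −log10 q of at least 5 left 91 DHX9 knockdown members. Cut to its 1623 most significant peaks, as long as the shortest list, a list held 51 (control) and 55 (DHX9 knockdown) members, the DHX9 knockdown median place was 42.5%, and the overlaps were 58.2% of DHX9 knockdown members by control, 45.5% of them by U2AF1 knockdown and 50.0% of U2AF1 knockdown members by DHX9 knockdown. No share over all peaks at that length is given beside these overlaps, so they cannot be set against the shares of the full lists. When starts of every other gene type also excluded a peak, members were 2.21% (control), 2.09% (U2AF1 knockdown) and 2.41% (DHX9 knockdown) of their lists. A setting chosen after seeing the data, members with at least 50% unique 50-base words, left 29 U2AF1 knockdown members (1.79% of the list) and 2.64% of the DHX9 knockdown list. These follow from the narrower choice of peaks. Limits of 500 or 2000 bp moved none of the 21 values each. No paired analysis was possible because no list was known to rest on a single replicate in any condition. For the same reason no replicate could be left out. The soft-masked share was not run, since the reference has no soft masking.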
